A study of Mus musculus with 8 samples.

Results

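The genes described here are 10 members of the feeding system of the arcuate nucleus, out of 55890 genes in the deposited count table. They were listed by name and found by their Ensembl identifiers. The list holds the peptide genes *Pomc*, *Cartpt*, *Agrp* and *Npy*, the melanocortin receptor genes *Mc3r* and *Mc4r*, the neuropeptide Y receptor genes *Npy1r*, *Npy2r* and *Npy5r*, and the peptidase gene *Prcp*. All 10 were in the table and all 10 were among the 18637 genes with enough counts to be tested.

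Neurons of the arcuate nucleus that make pro-opiomelanocortin (POMC) and neurons that make agouti-related peptide (AgRP) with neuropeptide Y (NPY) act against each other on food intake. POMC is cut into melanocortins such as α-MSH, which activate the melanocortin 3 and 4 receptors and reduce feeding, whereas AgRP blocks these receptors and NPY stimulates feeding through its own receptors. Estrogen acts on this circuit, and POMC neurons are among the hypothalamic cells that express estrogen receptor-α.

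Poly(A) RNA of the hypothalamus was sequenced from female mice at 16 weeks of age, as 4 POMC-C451Af/f pools and 4 control pools. Each pool joined the RNA of 2 animals. POMC-C451Af/f mice combine a POMC-Cre transgene with a floxed allele of *Esr1*, the gene of estrogen receptor-α, in which the substitution of a palmitoylated cysteine removes the membrane-initiated signaling of the receptor. Controls carried no Cre and are called wildtype in the sample labels, whereas the methods of the study describe homozygous C451Af/f littermates. The *Pomc* promoter that drives the Cre is also active in corticotrophs and melanotrophs of the pituitary and, during development, in progenitors of other arcuate neurons. The total estimated count was between 37841365 and 48942116 per control pool, with a median of 41723908, and between 36095253 and 40498166 per POMC-C451Af/f pool, with a median of 36608051.

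*Esr1* (ENSMUSG00000019768.17) had 12.3, 12.8, 11.6 and 16.0 CPM (counts scaled by the TMM-adjusted library size) in control replicates 1 to 4. It had 11.6, 12.2, 9.997 and 10.8 CPM in POMC-C451Af/f replicates 1 to 4. The groups overlapped, and control replicate 4 stood above the other 7 pools. The log2 fold change of POMC-C451Af/f over control was -0.23, with a standard error (SE) of 0.104, a 95% confidence interval of -0.46 to -0.0047, and edgeR p-values of 0.0462 unadjusted and 0.878 adjusted over all tested genes. Without control replicate 4 it was -0.13 (SE 0.082). The counts of *Esr1* do not tell its mutated transcript from its intact transcript, so these counts hold no check of the genotype.

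None of the 10 genes was called between the genotypes. A call required an adjusted p of at most 0.05 and an absolute log2 fold change over 0.5 in edgeR's quasi-likelihood test, which called 4 of the 18637 tested genes (0.0215%). Before adjustment, only *Pomc* among the 10 genes (1 of 10) fell below a p-value of 0.05, against 950 tested genes (5.10%). Of the 10 genes, edgeR gave 0 such p-values without control replicate 1, against 635 of 18868 tested genes. It gave 2 without control replicate 2, against 1189 of 18889, and 3 without POMC-C451Af/f replicate 1, against 1006 of 18896. Without POMC-C451Af/f replicate 2 it gave 1, against 1773 of 18902. DESeq2 on the same counts also called 0 of the 10, and 0 of them had an unadjusted p-value under 0.05 with that tool. In 0 of the 10 genes did the genotype groups lie apart, against 519 tested genes (2.78%). Of the 10 log2 fold changes, 3 were above 0 and 7 below, with a median of -0.11, and the median over all tested genes was 0.00085.

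**Figure D1:**
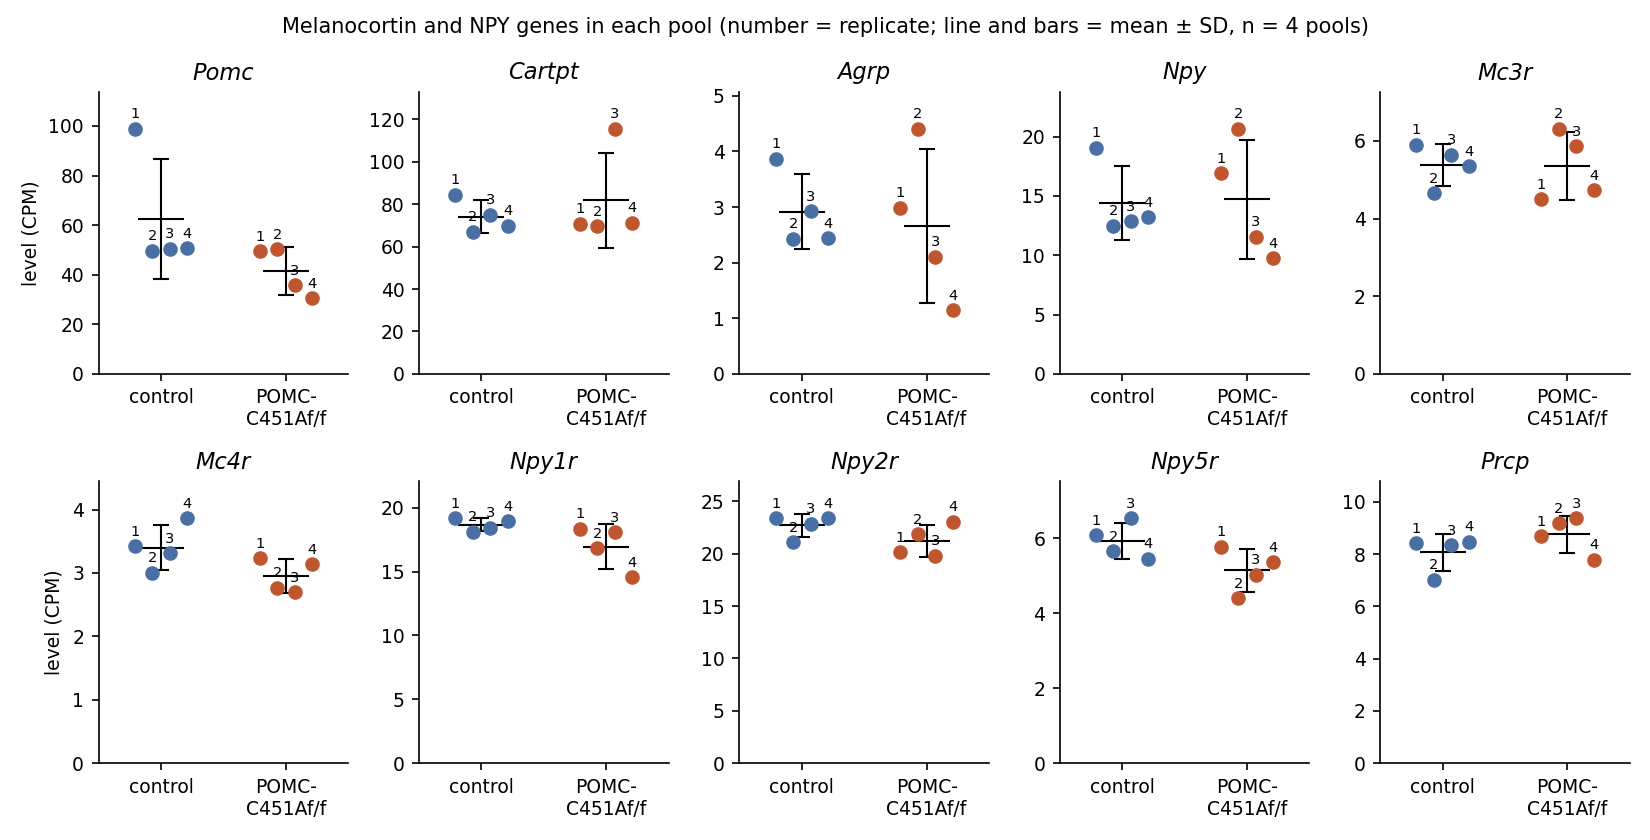
Level of each of the 10 genes in CPM (vertical axis, from 0) in 4 control pools (blue) and 4 POMC-C451Af/f pools (orange), with the replicate number above each point and the mean ± SD of 4 pools in black. The *Pomc* level of control replicate 1, 98.9 CPM, lies above the range of the other pools, 30.6 to 50.8 CPM.

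*Pomc* (ENSMUSG00000020660.7) encodes the precursor of the melanocortins and names the Cre-targeted neurons. It lies on the plus strand of chr12:3954951-3960642 (GRCm38), and its longest protein-coding transcript has 4 exons. Control replicates 1 to 4 had 98.9, 49.7, 50.5 and 50.8 CPM, and POMC-C451Af/f replicates 1 to 4 had 49.5, 50.2, 35.8 and 30.6 CPM. Control replicate 1 was far above every other pool, POMC-C451Af/f replicates 3 and 4 were the lowest, and the remaining 5 pools of both genotypes lay between 49.5 and 50.8 CPM. The group means were 62.5 ± 24.3 CPM in controls and 41.5 ± 9.85 CPM in POMC-C451Af/f mice (SD, n = 4 pools). The log2 fold change was -0.59 (SE 0.237, 95% confidence interval -1.11 to -0.062), at an edgeR adjusted p of 0.878 and an unadjusted p of 0.0319, and the two-sided exact permutation test gave p = 0.0571. Without POMC-C451Af/f replicate 2 the exact permutation p was 0.0286, the smallest that 35 arrangements can give, and with each of the other pools left out it was between 0.0571 and 0.343. Without control replicate 1 the log2 fold change was -0.28 (SE 0.151), with an adjusted p of 1. In bulk samples, fewer cells of a type and less RNA per cell cannot be told apart, which holds for each gene below.

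The gene next to *Pomc*, *Efr3b*, lies 1911 bases away and was named after its values were seen. It had 271 to 297 CPM in the control pools and 536 to 605 CPM in the POMC-C451Af/f pools, a log2 fold change of 1.02 (SE 0.0435) at an edgeR adjusted p of 3.56e-06. The groups did not overlap in *Efr3b*, whereas in *Pomc* they did.

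*Cartpt* (ENSMUSG00000021647.8) encodes cocaine- and amphetamine-regulated transcript, a feeding-reducing peptide that many arcuate POMC neurons make along with neurons elsewhere in the hypothalamus. It lies on the minus strand of chr13:99898489-99901091. It had 84.4, 66.9, 75.0 and 69.8 CPM in control replicates 1 to 4 and 70.7, 69.7, 116 and 71.2 CPM in POMC-C451Af/f replicates 1 to 4. POMC-C451Af/f replicate 3 was the highest pool, control replicate 1 came next, and the other 6 pools of both genotypes overlapped. The log2 fold change was 0.14 (SE 0.153, 95% confidence interval -0.20 to 0.48), at an edgeR adjusted p of 0.905 and an exact permutation p of 0.714. It turned to -0.070 without POMC-C451Af/f replicate 3.

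*Agrp* (ENSMUSG00000005705.11) encodes the antagonist of the melanocortin receptors and marks the opposing neurons. It was the thinnest signal among the peptides, with 41 to 164 estimated counts per pool. It had 3.87, 2.43, 2.92 and 2.44 CPM in control replicates 1 to 4 and 2.99, 4.41, 2.11 and 1.14 CPM in POMC-C451Af/f replicates 1 to 4. The POMC-C451Af/f pools held both the highest and the lowest value, and the control pools lay within their range. For *Agrp* the log2 fold change was -0.13 (SE 0.329, 95% confidence interval -0.86 to 0.60), at an edgeR adjusted p of 0.964 and an exact permutation p of 0.629. The sign turned without control replicate 1 (0.036) and without POMC-C451Af/f replicate 4 (0.12). In the annotation used for positions, the gene spans chr8:105566698-105637393 on the minus strand and overlaps 7 other annotated genes, among them *Ripor1* and *Ctcf* on the opposite strand and the noncoding *Gm5914* on the same strand. The library preparation kept the strand. Whether these overlaps affect its counts, which were made against a GRCm39 transcriptome, was not tested.

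*Npy* (ENSMUSG00000029819.7) encodes the other peptide of the AgRP neurons and is also made by many neurons outside the arcuate nucleus. It lies on the plus strand of chr6:49822710-49829507. Control replicates 1 to 4 had 19.1, 12.5, 12.9 and 13.2 CPM, and POMC-C451Af/f replicates 1 to 4 had 16.9, 20.7, 11.6 and 9.73 CPM. As for *Agrp*, POMC-C451Af/f replicate 2 was the highest pool, control replicate 1 came next and POMC-C451Af/f replicate 4 was the lowest. The log2 fold change was 0.035 (SE 0.22, 95% confidence interval -0.45 to 0.52), at an edgeR adjusted p of 0.988 and an exact permutation p of 1. Its sign changed in 5 of the 8 fits that left out 1 pool each.

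**Figure D2:**
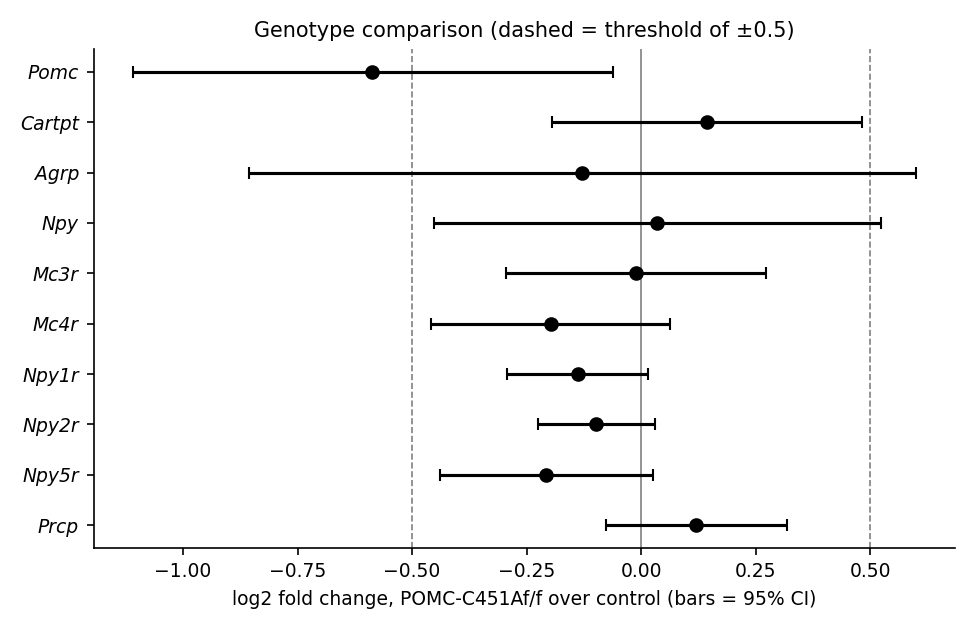
Log2 fold change of POMC-C451Af/f over control (horizontal axis) for the 10 genes, with 95% confidence intervals from edgeR's fit over 4 pools per genotype and dashed lines at the threshold of 0.5 in either direction. The interval of *Pomc*, from -1.11 to -0.062, is the only interval that does not include 0, and 0 of the 10 genes passed the adjusted threshold.

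The melanocortin receptors were low and varied less between pools than the peptides. *Mc3r*, the receptor found on both POMC and AgRP neurons, had 4.65 to 5.91 CPM in the control pools and 4.49 to 6.31 CPM in the POMC-C451Af/f pools, a log2 fold change of -0.011 (SE 0.128). *Mc4r*, the receptor on target neurons whose loss causes obesity, had 3.42, 3.003, 3.31 and 3.87 CPM in control replicates 1 to 4 and 3.23, 2.77, 2.70 and 3.14 CPM in POMC-C451Af/f replicates 1 to 4. Its control mean of 3.40 ± 0.358 CPM was above the POMC-C451Af/f mean of 2.96 ± 0.268 CPM (SD, n = 4 pools), but the groups overlapped and the log2 fold change of -0.20 (SE 0.118) came with an edgeR adjusted p of 0.878. Both receptor genes have 1 exon in the annotation.

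The NPY receptors all had negative log2 fold changes with overlapping groups. *Npy1r*, a postsynaptic receptor for NPY in feeding, had 19.2, 18.1, 18.5 and 19.0 CPM in control replicates 1 to 4 and 18.4, 16.9, 18.1 and 14.6 CPM in POMC-C451Af/f replicates 1 to 4. The control pools lay close together, POMC-C451Af/f replicate 4 was the lowest pool, and POMC-C451Af/f replicate 1 lay among the controls. This gave a log2 fold change of -0.14 (SE 0.0696), at an edgeR adjusted p of 0.878 and an exact permutation p of 0.0571. Without POMC-C451Af/f replicate 1, where the groups no longer overlapped, the exact permutation p of *Npy1r* was 0.0286, the smallest possible over 35 arrangements. With each of the other pools left out it was between 0.0571 and 0.171, and without POMC-C451Af/f replicate 4, the lowest pool, the log2 fold change was -0.072 (SE 0.0496), with an exact permutation p of 0.114. *Npy2r*, the presynaptic autoreceptor of NPY neurons, had 21.1 to 23.4 CPM in controls and 19.8 to 23.1 CPM in POMC-C451Af/f mice, a log2 fold change of -0.098 (SE 0.0574). *Npy5r*, the further feeding-related NPY receptor, had 5.46 to 6.55 CPM in controls and 4.41 to 5.78 CPM in POMC-C451Af/f mice, a log2 fold change of -0.21 (SE 0.105). The start of *Npy5r* lies 9064 bases from that of *Npy1r* on chromosome 8, in the opposite direction.

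*Prcp* encodes prolylcarboxypeptidase, which inactivates α-MSH by removing its last residue. It had 7.01 to 8.48 CPM in the control pools and 7.79 to 9.38 CPM in the POMC-C451Af/f pools. Control replicate 2 was the lowest pool and POMC-C451Af/f replicate 3 the highest, and the groups overlapped. Its log2 fold change was 0.12 (SE 0.0895), at an edgeR adjusted p of 0.878, and 0.058 (SE 0.0849) without control replicate 2. With the mean of the midbrain markers described below as a covariate, it was 0.066 (SE 0.122).

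Levels of different genes can be compared only per length. Per kb of the longest protein-coding transcript, the control level was 59.9 ± 23.3 CPM per kb for *Pomc* and 59.8 ± 6.2 CPM per kb for *Cartpt* (SD, n = 4 pools). *Cartpt* was above *Pomc* on this scale in 7 of the 8 pools, all but control replicate 1. *Npy* followed with 25.5 ± 5.53 CPM per kb, and *Agrp*, made by a subset of the cells that make *Npy* messenger RNA, had 3.97 ± 0.924 CPM per kb. *Npy2r* (6.75 ± 0.321) and *Npy1r* (6.23 ± 0.162) were the highest receptors on this scale. *Prcp* (2.72 ± 0.236) and *Npy5r* (2.56 ± 0.208) were alike within their spread, but with the union of exons as length they were not (1.47 and 2.32), and *Prcp* then came below *Mc3r*. On the former length *Mc3r* had 2.05 ± 0.206 CPM per kb, and *Mc4r* was the lowest with 1.21 ± 0.128 CPM per kb. In the POMC-C451Af/f pools *Cartpt* had 66.1 ± 18.2 and *Pomc* 39.8 ± 9.44 CPM per kb, and the order of the other 8 genes was the same, with *Mc4r* lowest at 1.06 ± 0.0956 CPM per kb.

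Ratios within a pool do not depend on the library scaling. The ratio of *Pomc* to *Agrp* counts was 25.5, 20.5, 17.3 and 20.9 in control replicates 1 to 4 and 16.6, 11.4, 17.0 and 26.8 in POMC-C451Af/f replicates 1 to 4. POMC-C451Af/f replicate 4 had the highest ratio although its *Pomc* level was the lowest; its *Agrp* level was the lowest as well. The mean log2 ratio was 0.28 lower in POMC-C451Af/f pools (exact permutation p = 0.4, adjusted over 3 ratios 0.4). This difference was -0.086 without POMC-C451Af/f replicate 2 and -0.50 without POMC-C451Af/f replicate 4. The ratio of *Pomc* to *Cartpt*, peptides of the same neurons, was 1.17, 0.743, 0.674 and 0.728 in control replicates 1 to 4 and 0.70, 0.72, 0.31 and 0.43 in POMC-C451Af/f replicates 1 to 4, with an exact permutation p of 0.143 and an adjusted p of 0.343. Control replicate 1 was alone above 1, and POMC-C451Af/f replicates 3 and 4 were the lowest. The ratio of *Npy* to *Agrp* was between 4.4 and 5.41 in controls and between 4.69 and 8.54 in POMC-C451Af/f pools (exact permutation p = 0.229, adjusted p = 0.343). Its mean log2 was 0.26 higher in POMC-C451Af/f pools, and 0.087 higher without POMC-C451Af/f replicate 4, the pool with the highest ratio. Leaving out any 1 pool left the adjusted p of all 3 ratios at 0.0857 or more. For 1 ratio alone at 0.0286, the smallest permutation p over 35 arrangements, this is the lowest adjusted p possible. It therefore tells nothing about stability.

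Whether the genes vary together from pool to pool was examined in all 45 pairs with Pearson's r and Spearman's rho of log2(CPM + 0.5) over the 8 pools, with two-sided exact permutation p-values adjusted over the 45 pairs. *Agrp* and *Npy* were the only pair past an adjusted p of 0.05. Their r was 0.932 (permutation p = 7.44e-05, adjusted p = 0.00335) and their rho 0.976 (permutation p = 0.000397, adjusted p = 0.0179). Without the 2 pools farthest from the median of *Agrp*, r was 0.904, and for deviations from the genotype means it was 0.954. When each pool was left out in turn, r was between 0.903 and 0.963. The adjusted permutation p over 7 pools was 0.205 without control replicate 1 (r = 0.919) and 0.17 without POMC-C451Af/f replicate 2 (r = 0.903), so the call rests on these pools. Among 15639 tested genes with a mean of at least 1 CPM, *Npy* ranked 41 by its r with *Agrp*, and *Agrp* ranked 29 by its r with *Npy*.

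**Figure D3:**
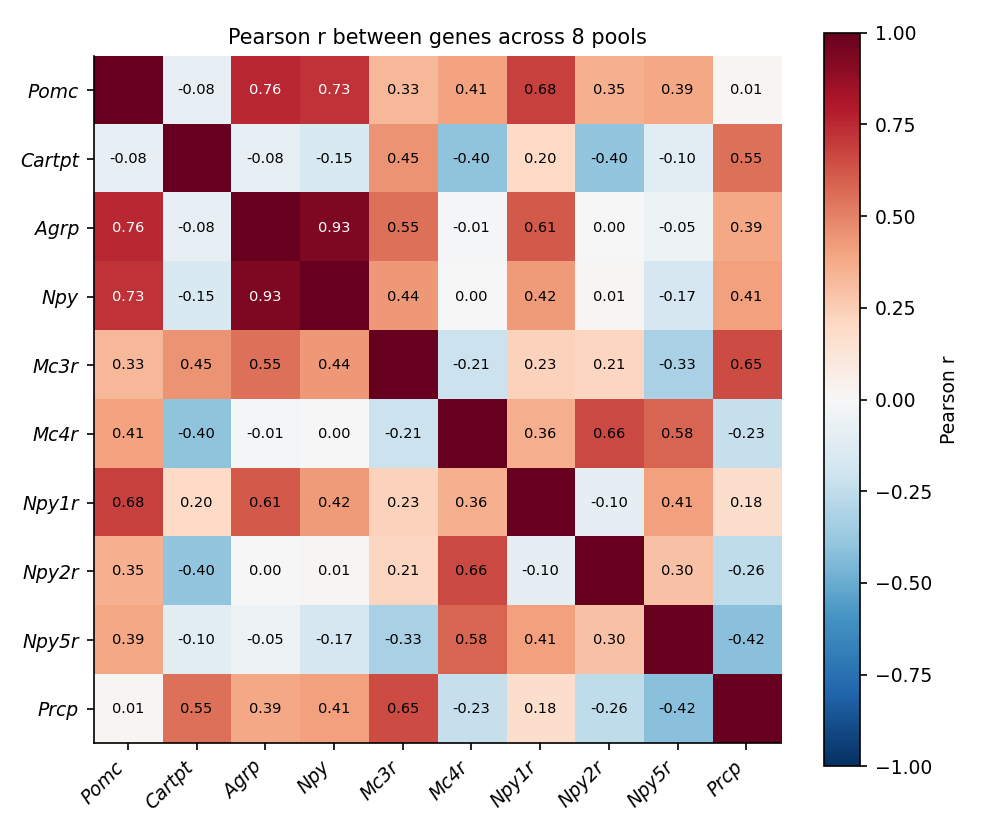
Pearson's r of log2(CPM + 0.5) over 8 pools for each of the 45 pairs of the 10 genes, with red for positive and blue for negative values. The highest value is 0.932 for *Agrp* and *Npy*, the lowest is -0.419, 28 pairs are positive and 17 negative, and the median is 0.231.

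Of the peptides of the POMC neurons, *Pomc* had positive r values with *Agrp* and *Npy*, whereas *Cartpt* had r values slightly below 0 with both. *Pomc* had an r of 0.755 with *Agrp* (permutation p = 0.0445, adjusted p = 0.668; rho 0.643, permutation p = 0.0962) and an r of 0.726 with *Npy* (permutation p = 0.0319, adjusted p = 0.668; rho 0.667, permutation p = 0.0831). Neither passed the adjustment, and both fell without the 2 pools farthest from the median of *Pomc*, control replicate 1 and POMC-C451Af/f replicate 4, to 0.524 and 0.451. For deviations from the genotype means they were 0.795 and 0.899. *Pomc* and *Cartpt*, which share a neuron type, had an r of -0.0818 (permutation p = 0.705, adjusted p = 0.907; rho -0.0476, permutation p = 0.935; r = -0.977 without the 2 farthest pools). That value depends on POMC-C451Af/f replicate 3, where *Cartpt* was high and *Pomc* low. Without this pool r was 0.73, with an adjusted permutation p of 0.651, and without control replicate 1 it was -0.473. *Cartpt* had an r of -0.0792 with *Agrp* (permutation p = 0.813, adjusted p = 0.963; rho -0.167, permutation p = 0.703) and of -0.155 with *Npy* (permutation p = 0.743, adjusted p = 0.929; rho -0.238, permutation p = 0.582). Without the 2 farthest pools these were -0.0185 and -0.122. Of the 45 pairs, 3 had an unadjusted permutation p under 0.05 for r and 5 for rho.

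**Figure D4:**
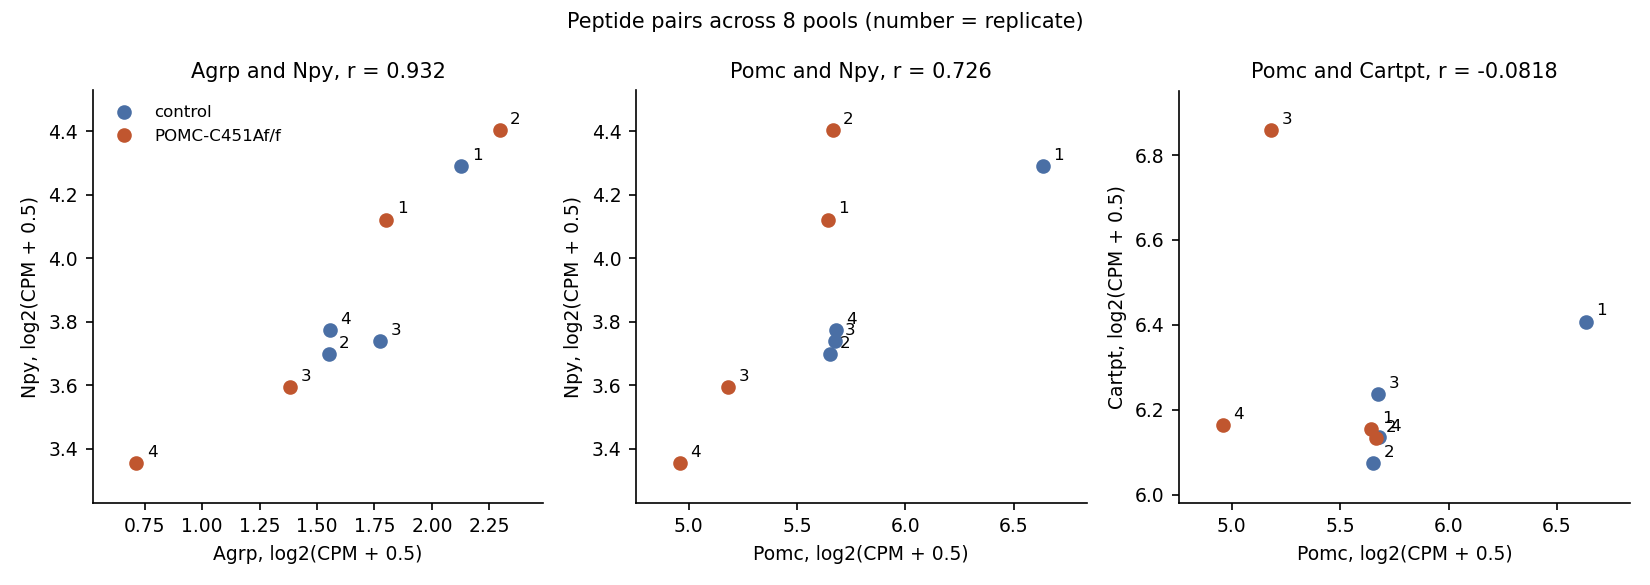
Log2(CPM + 0.5) of *Npy* against *Agrp*, of *Npy* against *Pomc* and of *Cartpt* against *Pomc* in 4 control (blue) and 4 POMC-C451Af/f (orange) pools, with replicate numbers beside the points. *Agrp* and *Npy* lie along a line (r = 0.932), *Pomc* varies little among 5 pools while *Npy* spreads (r = 0.726), and POMC-C451Af/f replicate 3 and control replicate 1 stand apart in the last panel (r = -0.0818).

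Genes among the 3 most like each peptide gene over the 8 pools, out of 15639 genes, are given as a description with no test. For *Pomc* they included the ribosomal protein gene *Rpl23a* (r = 0.991) and *Dynlrb2* (r = 0.979), a dynein light chain gene. *Rpl23a* ranged only from 207 to 236 CPM, with control replicate 1 the highest and POMC-C451Af/f replicate 4 the lowest, as for *Pomc*. For *Cartpt* they were *Gtf2f2* (0.954), *C1ql3* (0.949) and *Pm20d1* (0.949), for *Agrp* *Gtpbp6* (0.981), *Jpt1* (0.977) and *Sec14l3* (0.973), and for *Npy* they included *Gm12992* (0.98) and *Celsr1* (0.972). None of the 3 other peptide genes was among the 3 nearest of any peptide gene.

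The promoters of *Pomc* and *Npy* are shown because these genes were high together in control replicate 1 and low together in POMC-C451Af/f replicate 4, and because the mutated protein is a receptor that binds DNA. The RefSeq table of promoters (GRCm38.p6) held 8 of the 10 genes, and *Agrp* and *Mc4r* were not matched. The 250 bases before the start of *Pomc* (chr12:3954695-3954944, plus strand) and of *Npy* (chr6:49822460-49822709, plus strand) are given 5′ to 3′, with motif matches in capitals.
Pomc: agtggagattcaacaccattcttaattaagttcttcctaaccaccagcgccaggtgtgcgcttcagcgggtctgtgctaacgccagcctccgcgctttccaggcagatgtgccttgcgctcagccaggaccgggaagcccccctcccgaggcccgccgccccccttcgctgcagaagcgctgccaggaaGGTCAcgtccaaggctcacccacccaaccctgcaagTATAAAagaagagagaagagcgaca
Npy: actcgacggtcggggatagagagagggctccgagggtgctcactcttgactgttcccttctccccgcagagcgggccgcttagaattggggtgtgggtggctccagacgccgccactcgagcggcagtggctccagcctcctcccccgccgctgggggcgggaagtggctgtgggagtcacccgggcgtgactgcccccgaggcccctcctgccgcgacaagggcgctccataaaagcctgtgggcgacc
Motifs searched on both strands were the TATA box TATAAA, the estrogen response half-site GGTCA, the full estrogen response element GGTCANNNTGACC (which holds a half-site at each end), the STAT motif TTCNNNGAA and the FOXO motif GTAAACA. *Pomc* held the TATA box and 1 half-site, at 25 and 61 bases before the start, and *Npy* held none of the 5. Of 32536 different promoter windows of this length, 12.3% held the TATA box, 35.3% the half-site, 0.0645% the full element, 7.04% the STAT motif and 3.17% the FOXO motif. The half-site was found in 4 of the 8 matched genes (*Pomc*, *Cartpt*, *Mc3r* and *Prcp*), and the full element in 0 of them. A match is a description of letters in this window and not evidence of binding.

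Control replicate 1, labelled pool 2, stood apart in pituitary genes as well as in *Pomc*, but not in how many of the 10 genes it was the highest. Among the 10 genes it was the highest pool in 3 (16.1% of all tested genes) and the lowest in 0 (17.8% of all). POMC-C451Af/f replicate 2 was also the highest in 3 of the 10 (11.1% of all), and POMC-C451Af/f replicate 4 was the lowest in 4 (16% of all). Control replicate 1 was the highest in 7 of 7 tested genes of the pituitary, where *Pomc* is also made. The summed level of the 13 listed pituitary genes was 1459 CPM in control replicate 1 and 98.8, 25.6 and 36.2 CPM in control replicates 2 to 4. In POMC-C451Af/f replicates 1 to 4 it was 228, 36.9, 20.6 and 193 CPM. The most abundant of these genes, the prolactin gene *Prl*, had 1013 CPM in control replicate 1, 10.7 to 68.8 CPM in the other controls and 7.83 to 163 CPM in the POMC-C451Af/f pools. *Gh*, the growth hormone gene, had 410 CPM in control replicate 1 and 3.88 to 52.4 CPM in the other 7 pools. Of the 7 tested genes 6 were lower in POMC-C451Af/f pools, with a median log2 fold change of -0.57, and 0 were called by edgeR (0 with an unadjusted p-value under 0.05), with -2.00 (SE 1.25) for *Gh* and -1.78 (SE 1.34) for *Prl*. Without control replicate 1 these turned to 1.1 (SE 0.801) and 1.35 (SE 0.972). *Tbx19*, which defines the POMC-making pituitary cells, had 2.38 CPM in control replicate 1 and 0.871 to 1.43 CPM in the other pools, and *Pax7*, which marks melanotrophs, had 1.46 CPM there, close to 1.397 CPM in POMC-C451Af/f replicate 2 and 1.29 CPM in POMC-C451Af/f replicate 3. It was the 1 tested pituitary gene with a log2 fold change above 0 (0.18, SE 0.242). *Ghrhr* was at 0 in 3 pools and *Lhb* in 1, and neither had enough counts to be tested.

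The summed pituitary level of POMC-C451Af/f replicates 1 and 4, which is mostly *Prl* and *Gh*, was above that of every pool but control replicate 1, and *Pomc* was at 49.5 and 30.6 CPM there. *Tbx19* was at 1.43 and 1.36 CPM in these pools, against 1.35 CPM in control replicate 4. Over the 8 pools the pituitary list (mean log2 CPM) had an r of 0.661 with *Pomc* (permutation p = 0.0999, adjusted over 40 relations 0.51; rho 0.0952, permutation p = 0.84). Without control replicate 1 this r was -0.183, and without the 2 pools farthest from the median of the list it was -0.438, so the relation rests on that pool. With the pituitary mean as a covariate, the log2 fold change of *Pomc* was -0.44 (SE 0.163), at an edgeR adjusted p of 0.955. The part of pituitary tissue in the *Pomc* level of control replicate 1 was not tested.

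Most listed marker genes of other hypothalamic nuclei were high in the same pool. Of 12 such genes, 10 were highest in control replicate 1 (16.1% of all tested genes). In POMC-C451Af/f replicate 3, 10 of the 12 were lowest (16.2% of all tested genes). *Lhx6* went the other way and was lowest in control replicate 1, with 7.915 CPM against 8.17 to 15.1 CPM elsewhere. *Crh* had 6.85 CPM there, below 8.05 CPM in control replicate 2. *Pmch*, which encodes melanin-concentrating hormone, had 631 CPM in control replicate 1, 312 CPM in POMC-C451Af/f replicate 3 and 403 to 521 CPM in the other 6 pools. *Avp*, the vasopressin gene, had 261 CPM in control replicate 1, 116 CPM in POMC-C451Af/f replicate 3 and 150 to 239 CPM elsewhere. All 12 had log2 fold changes below 0, with a median of -0.20, and 0 were called. *Trh*, the thyrotropin-releasing hormone gene (-0.23, SE 0.0671, adjusted p = 0.878 in edgeR's test), and *Gal*, the galanin gene (-0.14, SE 0.0605, adjusted p = 0.878 in edgeR's test), had unadjusted p-values under 0.05, as did 5.10% of all tested genes. Of the 12 genes, only *Trh* had groups that did not overlap, against 2.78% of all tested genes. The log2 fold change of *Gal* was -0.093 (SE 0.0525) without POMC-C451Af/f replicate 3. With the mean of the midbrain markers described next as a covariate, that of *Trh* was -0.13 (SE 0.079) and that of *Gal* -0.018 (SE 0.0589).

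Markers of midbrain dopamine neurons moved with POMC-C451Af/f replicate 3, which was the highest pool in 8 of 8 of them (15.9% of all tested genes). Their summed level was 220, 207, 254 and 272 CPM in control replicates 1 to 4 and 316, 251, 495 and 360 CPM in POMC-C451Af/f replicates 1 to 4. *Aldh1a1*, the most abundant over all pools, had 66.8 to 83.4 CPM in controls and 82.2 to 148 CPM in POMC-C451Af/f mice. The dopamine transporter gene *Slc6a3* had 6.90, 4.24, 15.8 and 26.4 CPM in control replicates 1 to 4 and 36.4, 12.3, 90.0 and 53.9 CPM in POMC-C451Af/f replicates 1 to 4. All 8 genes were higher in POMC-C451Af/f pools with an unadjusted p-value under 0.05 in edgeR's test. Such a p-value, in either direction, was found in 5.10% of all tested genes. The log2 fold changes ran from 0.27 for *Ddc* to 1.99 for *En1* with a median of 0.80. In edgeR's test 0 of 8 were called (adjusted p = 0.878 each). DESeq2 also called 0 of the 8, with 0.734 as the lowest adjusted p, that of *Th*. Without POMC-C451Af/f replicate 3 the values were lower, among them 0.14 for *Ddc*, 0.67 for *Chrna6*, 0.29 for *Aldh1a1* and 1.38 for *En1*. With all 8 pools the others were *Pitx3* (1.23), *Slc6a3* (1.86), *Chrna6* (1.05), *Th* (0.55), *Aldh1a1* (0.48) and *Slc18a2* (0.32). Only in *Th* did the groups not overlap, against 2.78% of all tested genes. None of the 8 was at 0 in any pool, and dopamine neurons of the arcuate nucleus also express *Th*, *Ddc*, *Slc18a2* and *Slc6a3*, 4 of the 8. With the midbrain mean as a covariate, the log2 fold change of *Pomc* was -0.24 (SE 0.296), that of *Agrp* turned to 0.38 (SE 0.357), that of *Cartpt* turned to -0.16 (SE 0.174) and that of *Npy* went from 0.035 to 0.43 (SE 0.228), with adjusted p-values of 1 in edgeR's test. The midbrain mean had an r of -0.689 with *Pomc* (permutation p = 0.056, adjusted p = 0.439; rho -0.643, permutation p = 0.0962; r = -0.846 without the 2 farthest pools). Its part in the *Pomc* difference was not tested.

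**Figure D5:**
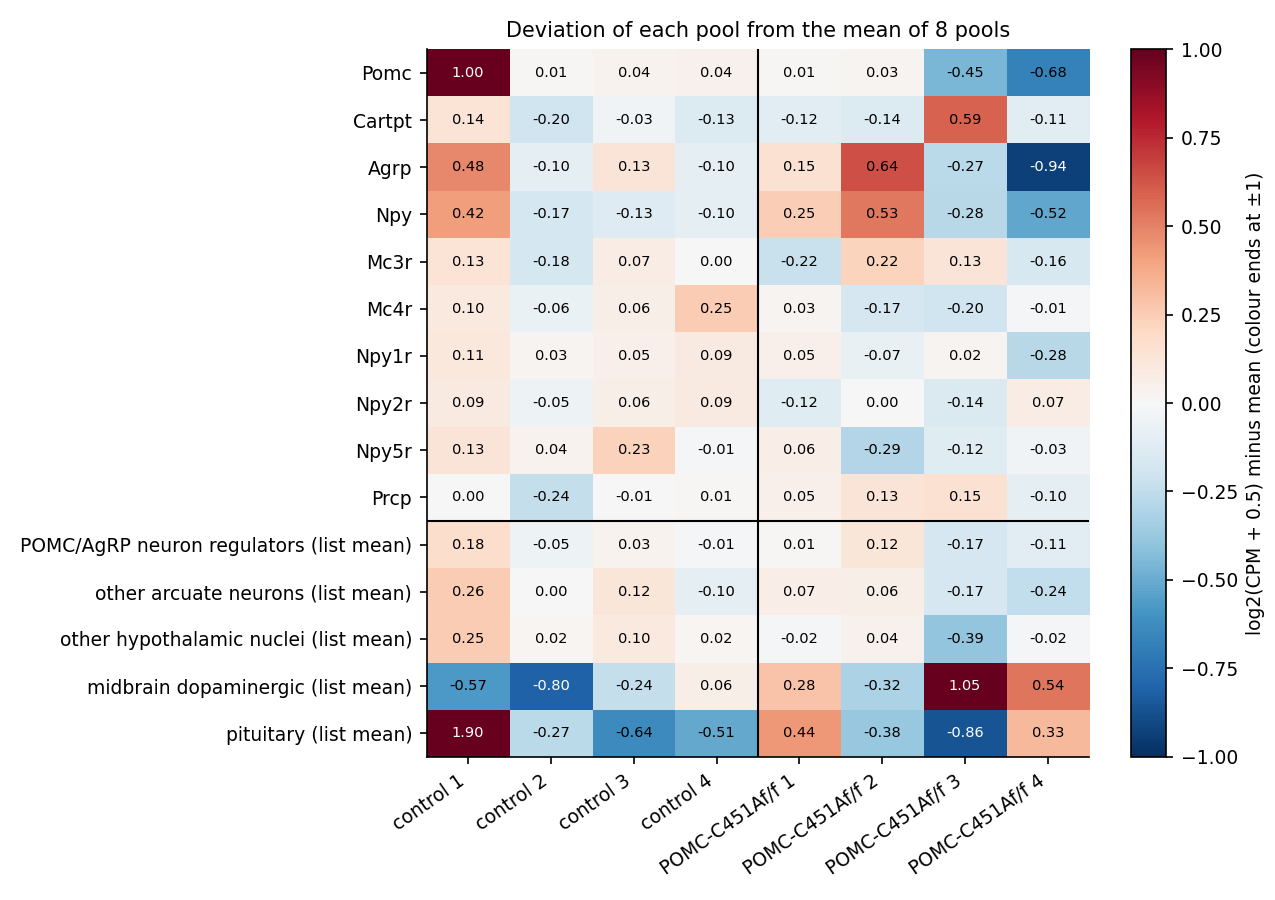
Deviation of each pool from the mean of the 8 pools in log2(CPM + 0.5), for the 10 genes and for the mean of 5 marker lists, with red above and blue below the mean and colors ending at 1 in either direction. Control replicate 1 is above the mean in *Pomc*, *Agrp*, *Npy* and the pituitary list, and POMC-C451Af/f replicate 3 combines high *Cartpt* and midbrain genes with low *Pomc*.

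No relation between the mean of regulators of the POMC and AgRP neurons and a peptide gene passed the adjustment, and the regulators did not all move alike. Of 14, 7 were highest in control replicate 1 (16.1% of all tested genes) and 0 lowest there, and 6 were lowest in POMC-C451Af/f replicate 3 (16.2% of all). *Ghsr* and *Nhlh2* were highest in POMC-C451Af/f replicate 3, and *Htr2c* was highest in POMC-C451Af/f replicate 4, where *Pomc*, *Agrp* and *Npy* were lowest. The list holds 14 genes, among them the transcription factors *Isl1*, *Bsx*, *Otp* and *Tbx3* and the leptin receptor *Lepr*, and 0 of 14 were called by edgeR (0 with an unadjusted p-value under 0.05), with 4 log2 fold changes above 0, 10 below and a median of -0.064. The lowest p-values were those of *Stat3*, the leptin-activated transcription factor (-0.08, SE 0.0402, adjusted p = 0.878 in edgeR's test), and *Isl1*, needed for *Pomc* expression (-0.19, SE 0.102, adjusted p = 0.878 in edgeR's test). That of *Isl1* was -0.10 (SE 0.0826) without POMC-C451Af/f replicate 3 and -0.0032 (SE 0.107) with the midbrain covariate. *Bsx*, a factor of AgRP neurons, was highest in control replicate 1 (15.5 CPM) and POMC-C451Af/f replicate 2 (14.1 CPM) and lowest in POMC-C451Af/f replicate 4 (8.90 CPM). *Npy* had the same pair of highest pools, in the other order, and the same lowest pool. The mean log2 CPM of this list had an r of 0.866 with *Npy* (permutation p = 0.00652; rho 0.881, permutation p = 0.00724), 0.837 with *Agrp* (permutation p = 0.00933; rho 0.929, permutation p = 0.00223) and 0.859 with *Pomc* (permutation p = 0.00811; rho 0.762, permutation p = 0.0368). Each had an adjusted p of 0.124 over 40 relations of 4 list means with the 10 genes, of which 0 passed an adjusted p of 0.05 and 4 an unadjusted p. Without the 2 pools farthest from the median of the list the r values were 0.901, 0.954 and 0.702. These relations were chosen after the data were seen.

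None of the genes tested that act around the peptides and receptors was called. Over all tested genes, 5.10% had an unadjusted p-value under 0.05 in edgeR's test. Of 8 tested genes of precursor processing, such as the convertases *Pcsk1* and *Pcsk2*, 0 were called by edgeR and 1 had an unadjusted p-value under 0.05: *Pcsk1n*, which encodes the convertase inhibitor proSAAS, had a log2 fold change of -0.12 (SE 0.0485, adjusted p = 0.878 in edgeR's test). Of 9 tested accessory genes of melanocortin signaling, 0 were called and 1 had such a p-value: *Gnas*, the gene of the G protein subunit that couples the melanocortin receptors to cyclic AMP, had a log2 fold change of -0.07 (SE 0.0251, adjusted p = 0.878 in edgeR's test). *Mrap2*, which encodes an accessory protein of the melanocortin 4 receptor, had 33.7 to 38.4 CPM in controls and 30.7 to 35.1 CPM in POMC-C451Af/f mice. Of 10 listed further ligands and receptors, 4 could be tested, and 0 were called or had an unadjusted p-value under 0.05. The lowest p-values there belonged to the μ-opioid receptor gene *Oprm1* (0.50, SE 0.241), a target of β-endorphin from POMC, and to *Dpp4* (-0.40, SE 0.21), whose peptidase cuts NPY, each at an edgeR adjusted p of 0.878. With the midbrain covariate they were 0.088 (SE 0.289) and -0.082 (SE 0.259). *Pyy* and *Ppy*, the peptide relatives of *Npy*, were at 0 in all 8 pools.

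Other cells of the arcuate nucleus gave no call in edgeR either. Of all tested genes, 5.10% had an unadjusted p-value under 0.05 in edgeR's test and 2.78% had groups that did not overlap. Such a p-value was found in 2 of 8 tested genes of other arcuate neurons and in 1 of 6 tanycyte genes. Among the former, *Tac2*, the neurokinin B gene, had 29.6 to 31.8 CPM in controls and 23.1 to 28.4 CPM in POMC-C451Af/f mice, so its groups did not overlap. Its log2 fold change was -0.20 (SE 0.0595), at an edgeR adjusted p of 0.878. *Corin* was also lower without overlap (-0.30, SE 0.141, adjusted p = 0.878 in edgeR's test). *Nr5a2* had a log2 fold change of -0.60 (SE 0.219, adjusted p = 0.878 in edgeR's test), with 5.71 CPM in control replicate 1 and 3.07 to 3.66 CPM in the other controls against 1.89 to 3.41 CPM in POMC-C451Af/f mice, and of -0.39 (SE 0.186) without control replicate 1. The tanycyte gene *Col25a1* had a log2 fold change of 0.15 (SE 0.0449, adjusted p = 0.878 in edgeR's test) and groups that did not overlap. Of 6 tested genes of other brain regions, 0 were called or had an unadjusted p-value under 0.05. *Tcf7l2*, high in the thalamus, had 19.7 CPM in control replicate 1, 36.3 to 74.3 CPM in the other controls and 33.7 to 95.7 CPM in POMC-C451Af/f mice, with POMC-C451Af/f replicate 3 the highest, and *Prox1* had a log2 fold change of 0.18 (SE 0.107, adjusted p = 0.878 in edgeR's test), which was 0.072 (SE 0.084) without POMC-C451Af/f replicate 3.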

How the data were processed

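Hypothalamic poly(A) RNA of 8 pools was sequenced with a stranded kit. The authors quantified reads with Salmon 1.10 against a transcriptome of GRCm39 and deposited estimated counts per gene, not normalized between pools. A deposited table of the authors' comparisons, with fold changes and p-values made with DESeq2 1.40, was not used here. Of the 55890 identifiers, 51424 were matched to symbols in GENCODE M21, which gives positions on GRCm38, with no conversion.

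Estimated counts were rounded to whole numbers, filtered with filterByExpr (minimum count 10, minimum total 15), scaled with TMM (factors 0.984 to 1.02) and tested by genotype alone with glmQLFit and glmQLFTest of edgeR 4.0.16 (R 4.3.3), with Benjamini-Hochberg adjustment over 18637 genes. The SE was taken as the log2 fold change divided by the square root of F. Exact permutation tests used 70 arrangements of pools, where the smallest possible p is 0.0286, or 40320 pairings for correlations, on log2(CPM + 0.5). Depth and error are given as counts per pool and SD over pools. The procedures were tested on simulated data.

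The text names all 10 genes. From each of 10 gene lists it names genes with an unadjusted p under 0.05, otherwise the 2 with the lowest p. It also names genes among the 3 with the highest r to each peptide gene, *Esr1*, and the most abundant pituitary and midbrain genes. Further genes were named after their values were seen. The members and lists were chosen with earlier results of these data known. Alternatives were DESeq2 1.42.0, DESeq2's size factors, total counts, other filters, a replicate block, marker-list covariates, another pseudocount, FDR alone, the union of exons as gene length, and each pool left out.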

Additional observations from a re-analysis of the deposited data

Results flagged for a closer look

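In 94 groups of 4 pools (47 levels, ratios and list means in each genotype), 11 had 1 pool far from the other 3. Chance gives about 1 in 20 for independent groups that were not chosen from the data, which does not hold here. In 7 of the 11 groups the far pool was control replicate 1. Its values were 98.9 CPM for *Pomc* against 49.7 to 50.8 CPM in the other controls, 19.1 CPM for *Npy* against 12.5 to 13.2 CPM, and 1.17 for the ratio of *Pomc* to *Cartpt* against 0.674 to 0.743. It also had 34.5 CPM for *Gal* against 32.6 to 32.9 CPM, a small gap, 1013 CPM for *Prl* against 10.7 to 68.8 CPM, 410 CPM for *Gh* against 4.52 to 23.5 CPM, and a mean log2 CPM of 4.15 for the pituitary list, against 1.61 to 1.98 in the other controls.

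POMC-C451Af/f replicate 3 stood apart from its group with 116 CPM for *Cartpt* and with a mean log2 CPM of 4.95 for the genes of other hypothalamic nuclei, against 5.32 to 5.39. Control replicate 2 was low in *Prcp*, with 7.01 CPM, and POMC-C451Af/f replicate 4 was high in the mean log2 CPM of the further ligands and receptors, with 0.50. These genes share pools, *Prl* and *Gh* enter the pituitary list mean, and *Pomc* enters its ratio to *Cartpt*, so the 11 groups are not independent. The genes and lists were also chosen with earlier results of these data known. The count of flagged groups therefore cannot be set against chance. The cause was not tested.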

How the results depend on the processing

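Under the 9 alternatives that kept all pools, and in the 8 fits that left out 1 pool each, 0 of the 10 genes were called. The count of called genes among all tested was 4. It was 12 with DESeq2, 2 with at least 10 counts in every pool and 2 with the replicate block, and between 4 and 5 when 1 pool was left out. Whether the replicate numbers pair the pools could not be told. The deviations of same-numbered pools had correlations of 0.14, -0.18, -0.11 and 0.24, and not every pool correlated best with its own number. With the block, 1130 tested genes had an unadjusted p-value under 0.05 in edgeR's test, against 950 without it. The SE of *Pomc* went from 0.237 to 0.143 and that of *Npy* from 0.22 to 0.169. Those of *Mc3r* (0.128 to 0.141) and *Prcp* (0.0895 to 0.0962) rose. The block turned the log2 fold change of *Npy* to -0.0021.

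Of 80 log2 fold changes of the 10 genes under the former alternatives, 76 kept their direction, and of 80 with 1 pool left out, 68 did. The midbrain covariate turned *Cartpt* to -0.16, *Agrp* to 0.38, *Mc3r* to 0.0027, *Gh* to 0.58, *Prl* to 1.85, *Slc6a3* to -0.025, *Slc18a2* to -0.0038, *Ddc* to -0.064, *Pitx3* to -0.18, *Chrna6* to -0.16 and *Prox1* to -0.021, and 5 of these 11 are genes of that list. The pituitary covariate turned *Prl* to 0.089. Leaving out 1 pool gave ranges of -0.070 to 0.21 for *Cartpt*, -0.48 to 0.12 for *Agrp*, -0.17 to 0.20 for *Npy*, -0.10 to 0.064 for *Mc3r*, -2.52 to 1.1 for *Gh* and -2.39 to 1.35 for *Prl*. That of *Pomc* was -0.69 to -0.28. Of 26 named genes outside the midbrain list, the midbrain covariate turned 6, made 10 smaller and 1 (*Npy*, to 0.43) larger by over 1.5 times, and of the 8 in the list it turned 5 and made 3 smaller. Among those made smaller were *Pomc* (-0.24), *Isl1* (-0.0032), *Gal* (-0.018), *Pcsk1n* (-0.036), *Col25a1* (0.056), *Th* (0.16), *Aldh1a1* (0.093) and *En1* (0.091). The covariate is the mean of the 8 midbrain genes themselves, so values nearer 0 for these 8 were fixed in advance. It was also higher on average in POMC-C451Af/f pools (exact permutation p = 0.0857). It can therefore take up genotype differences of other genes.

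The count of correlated pairs was between 0 and 1 with 1 pool left out. The r of *Pomc* and *Cartpt* ran from -0.473 to 0.73, and was 0.0761 for deviations from the genotype means. That of *Cartpt* ran from -0.34 to 0.332 with *Agrp* and from -0.312 to 0.354 with *Npy*. The pituitary mean and *Pomc* ran from -0.183 to 0.91, and the midbrain mean and *Cartpt* from -0.184 to 0.742. The alternatives for the other named genes and for the list means were chosen after seeing the data. Exact permutation tests by genotype gave 0 of the 10 genes a p under 0.05, and between 0 and 1 with 1 pool left out: *Npy1r* without POMC-C451Af/f replicate 1 and *Pomc* without POMC-C451Af/f replicate 2, each at 0.0286 in the exact permutation test. The ratio of *Npy* to *Agrp* also reached 0.0286 in the exact permutation test without POMC-C451Af/f replicate 2, and adjusted over the 3 ratios 0 passed 0.05 in any of these settings. With 1 pool left out, 1 ratio alone at 0.0286 cannot pass that adjustment. With the union of exons, *Cartpt* (58.0 CPM per kb) stood above *Pomc* (47.4), *Agrp* had 2.88, *Npy1r* 5.41, *Npy5r* 2.32 and *Prcp* 1.47. *Agrp* had 41 to 164 counts per pool and *Mc4r* 96 to 162; what this depth limits was not tested. The cause of these changes was not tested.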
